A study of Mus musculus with 3 samples.

Results

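The 50 genes described here encode heterogeneous nuclear ribonucleoproteins (hnRNPs) and protein parts or partners of the spliceosome. They were taken by symbol from a fixed list, not by any measured value, and each matched 1 gene of the 55536 in the annotation. Their RNA was measured in the nuclear fraction of macrophages grown from bone marrow of C57BL/6J mice. The cells had received Lipid A, the Tlr4-binding anchor of bacterial lipopolysaccharide, at 100 ng/ml for 15 min. After depletion of ribosomal RNA the remainder was sequenced, with or without a poly(A) tail. The labels give 1 group of 3 biological replicates and no untreated sample is used here, so every value below is a level at this time and not a response to Lipid A. The labels name the fraction both as nucleus and as nucleoplasmic. They record neither sex nor age, and they give separate biosamples but the same donor entry for all 3 libraries, and the spread between them can therefore be technical.

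Splicing removes introns from a nascent transcript in the nucleus. The U1 particle pairs with the start of the intron (the donor site), Sf1 and the U2af heterodimer bind the branch point, the pyrimidine tract and the end of the intron (the acceptor site), and U2, with its SF3a and SF3b proteins, and the U5-containing tri-snRNP then join. HnRNPs coat the transcript and raise or lower the use of single exons, and many splicing factors are known to control their own amount through transcripts that keep an intron or carry an exon with an early stop codon. A transcript with such a stop is degraded by nonsense-mediated decay (NMD) when it reaches the cytoplasm and is translated, and a nuclear fraction also holds precursors that are still being spliced.

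Annotated genes held 18516063 expected counts (reads divided among genes by a model) in replicate 1, 17345644 in replicate 2 and 20947006 in replicate 3. The starting amount of RNA was 500 ng for replicate 2 and 1 µg for the others. The 8 macrophage markers were all measured and summed to between 5825 and 7770 CPM (counts scaled to the size of the library). T cell, B cell, neutrophil and erythroid markers summed to at most 0.594 CPM in any library, with Cd3e and Ly6g at 0 in all 3, fibroblast markers to at most 1.57 CPM and mast cell markers to at most 5.25 CPM. The 5 endothelial markers summed to between 125 and 241 CPM, nearly all of it in Vwf and Kdr; the part of such cells in the values below was not tested. In bulk RNA, a change in the number of cells and a change in RNA per cell cannot be told apart.

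All 50 genes were measured, that is they had a mean of at least 10 expected counts, and the lowest, Snrpb, had 210.3. Together they held 1.27 ± 0.0679% of the counts in annotated genes (SD, n = 3). Their median level in TPM (a level per length, scaled to the library) was 52.1 in replicate 1, 58.2 in replicate 2 and 39.2 in replicate 3. The median of the 11910 other measured protein-coding genes was 7.25, 7.29 and 5.42 TPM in the same libraries. Within each library the listed genes therefore lay above the other genes, by 2.88 ± 0.0874 on the log2 scale (SD, n = 3), which corresponds to 7.36-fold. Of the 50, 48 lay above the median of the measured protein-coding genes and 33 in the top 10%, 14 reached 100 TPM and 6 were under 10 TPM. Both medians were lowest in replicate 3, where 38 of the 50 listed genes had their lowest TPM (76%) and 65.8% of the other measured protein-coding genes did. By CPM, which is not scaled per length, it was 22 of the 50 (44%) and 43.8% of the others.

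Ddx5, a DEAD-box RNA helicase that takes part in U1 release and in transcription (chr11:106780355-106789185, minus strand), had 392, 474 and 381 TPM in replicates 1 to 3, or 416 ± 50.5 TPM (SD, n = 3). Hnrnpa2b1, an abundant hnRNP of nascent transcripts (chr6:51460932-51469894, minus strand), had 464, 436 and 329 TPM, or 410 ± 71.3 TPM. Their ranges overlapped, so their order was not fixed by 3 libraries. Rbm39, a U2af2-like splicing factor (chr2:156147239-156180238, minus strand), had 243, 312 and 230.4 TPM and lay below both in every library. Luc7l2, a relative of the yeast U1 protein Luc7, followed with 174, 249 and 135 TPM, and Srrm2, a scaffold of nuclear speckles, with 144, 194 and 176 TPM. These 5 genes made up 36.2% of the summed TPM of the 50.

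At the low end, Snrpc, the U1 protein that stabilises the pairing of U1 with the donor site, had 5.04, 5.0 and 3.07 TPM. Sf3a1, an SF3a subunit of U2, had 7.81, 7.05 and 5.60 TPM, and its partner Sf3a2 had 7.16, 6.08 and 7.41 TPM. Snrpc lay below Sf3a1 in every library, and Hnrnpa2b1 above Rbm39; these were the only 2 places in the order of 50 where the ranges of neighbours did not overlap.

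Grouped by role, the medians ranged from 13.6 to 278 TPM. The 2 DEAD-box helicases had a median of 278 TPM, the 4 U1-associated proteins (Luc7l, Luc7l2, Luc7l3 and Rbm25) 94.3 TPM and the 4 speckle proteins (Srrm1, Srrm2, Son and Pnn) 95.7 TPM. The 7 hnRNPs of the A, B and D families ranged from 8.38 TPM in Hnrnpa0 to 410 TPM in Hnrnpa2b1. HnRNPs C, K, L, M and R and the L paralogue Hnrnpll ranged from 15.4 TPM in Hnrnpr to 127 TPM in Hnrnpl, which binds CA repeats. The 4 F and H proteins had a median of 43.5 TPM, the 3 U proteins 27.4 TPM, Ptbp1 and Ptbp3 38.5 TPM, and the 3 SR-like regulators (Rbm39, Tra2a and Tra2b) 56.5 TPM. The 3 proteins that bind the branch point and the acceptor site (Sf1, U2af1 and U2af2) had 61.6 TPM. Among core proteins, the 4 of U1 and the Sm ring had a median of 13.6 TPM and ranged from Snrpc to Snrnp70, the U1-70K protein, at 111 TPM. The 6 subunits of SF3a and SF3b had a median of 16.0 TPM, with Sf3b1, which clamps the branch point, highest at 85.8 TPM. Prpf8, the core protein of U5, and Prpf6, which bridges the tri-snRNP, had 18.1 and 10.6 TPM. No test was run between these groups, whose members were listed and not sampled.

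**Figure D1:**
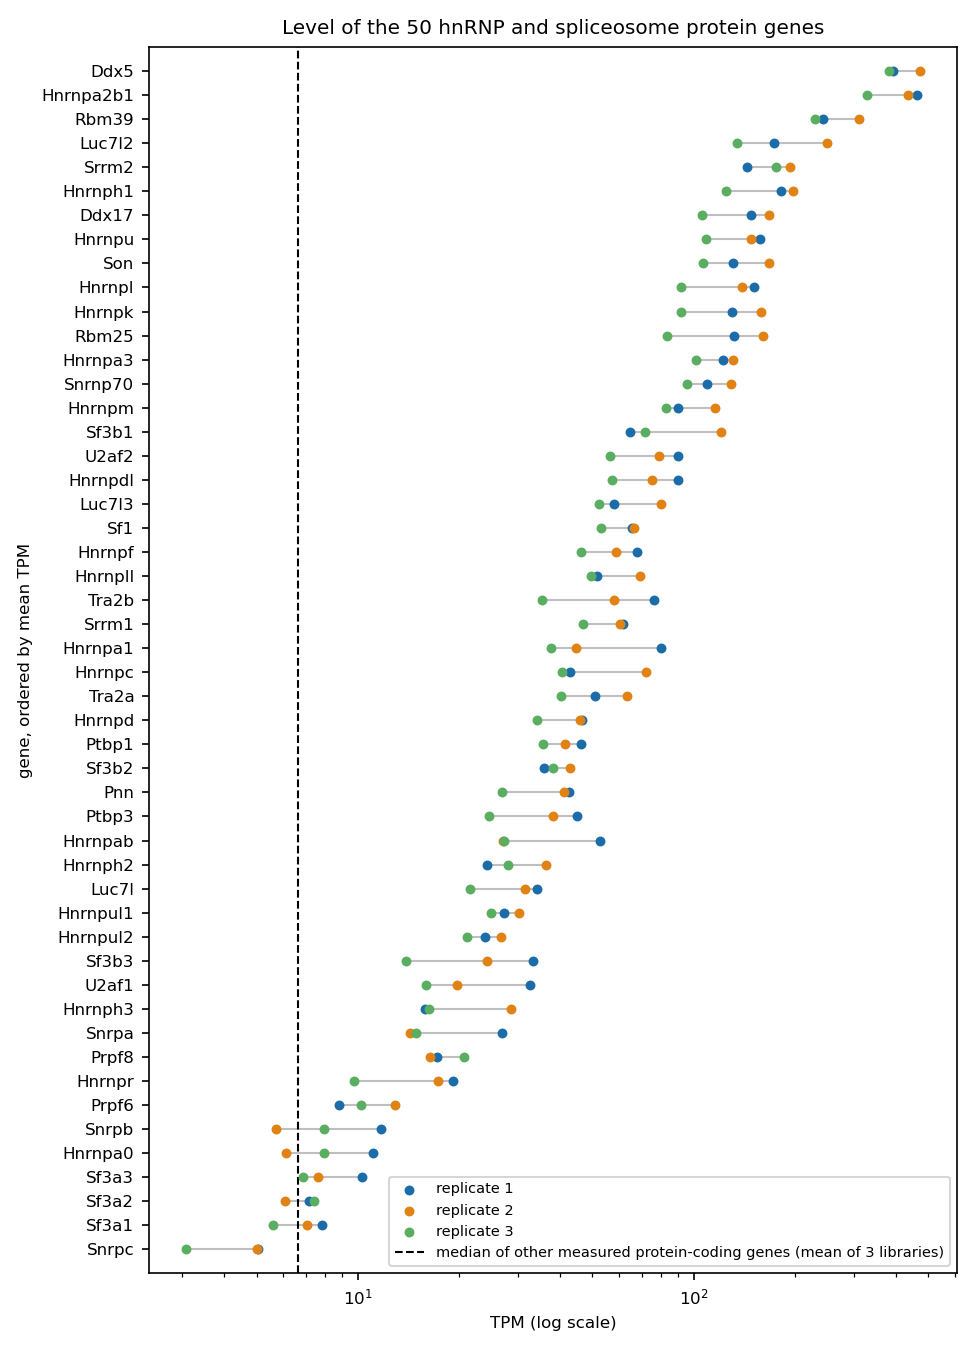
Level of each of the 50 genes in TPM on a log axis, ordered by mean, with 1 point per replicate and a grey line over their range; the dashed line is the median of the other measured protein-coding genes, 6.65 TPM. Ddx5 and Hnrnpa2b1 stand at the top with over 300 TPM in every library, and Snrpc, Sf3a1 and Sf3a2 lie around the dashed line.

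Much of this RNA was assigned to transcripts that do not encode the full protein. Of the counts in the 50 genes, 59.9 ± 0.318% lay in transcripts that the annotation types as protein-coding and 22.2 ± 1.98% in retained-intron transcripts (SD, n = 3). A further 13.4 ± 1.68% lay in transcripts typed as NMD targets and 4.53 ± 0.169% in processed transcripts, a class with no coding sequence given. The retained-intron share was 22.3% in replicate 1, 24.1% in replicate 2 and 20.2% in replicate 3. In units of TPM, which weight short transcripts more, the shares were 44.1% coding and 35.3% retained-intron.

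Composition differed widely from gene to gene. In 16 of the 50 genes (32%) under 50% of the counts lay in coding transcripts, compared with 16% of 8944 other protein-coding genes with a mean of at least 100 counts. These sets were not matched for the transcript types in their gene models, and a gene with only coding models cannot fall under 50%. The lowest coding shares were 6.56 ± 0.620% in Hnrnpll, 8.38 ± 3.05% in Hnrnph1, 11.4 ± 4.19% in Tra2a, 17.8 ± 5.13% in Snrpc and 19.2 ± 6.03% in Hnrnpa1. By contrast, Hnrnpa0, Hnrnpab, Hnrnpf, Hnrnph2 and Ddx17 have only coding transcripts in the annotation, so their share of 100% was given by the gene model. A gene without a retained-intron model cannot receive such counts, whatever its RNA is. A coding type can still hold intronic bases. Ddx17-204 and Ddx17-202 took 24.5 ± 1.53% and 24.1 ± 1.56% of Ddx17. Of their bases, 48.0% and 45.9% lay in introns of Ddx17-203, the coding transcript with the most counts.

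**Figure D2:**
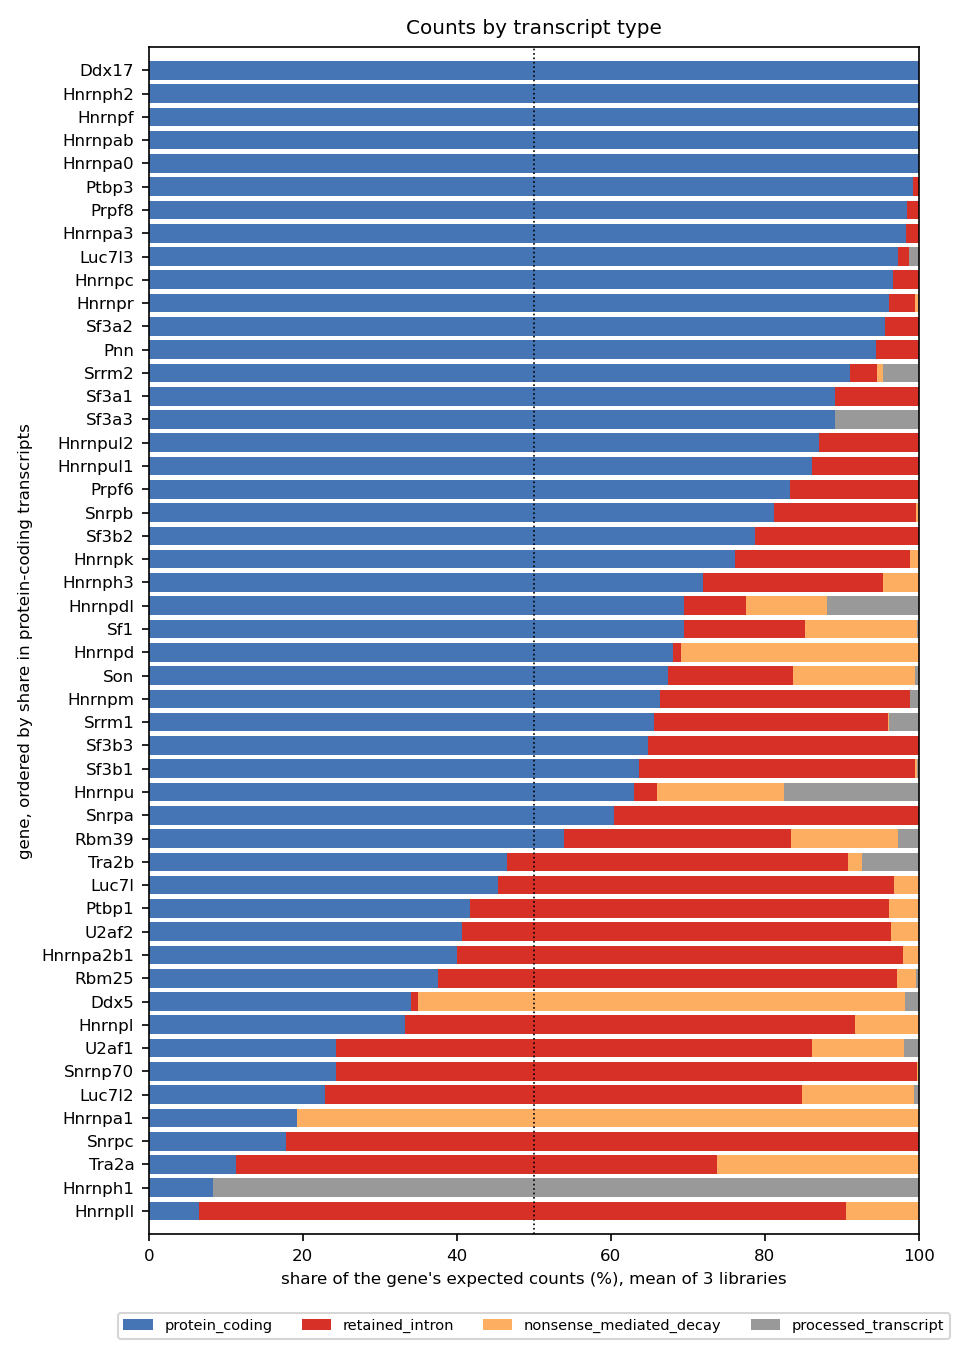
Share of each gene's expected counts by transcript type, as the mean of 3 libraries, ordered by the share in protein-coding transcripts; the dotted line marks 50%. The non-coding part is made mostly of retained-intron transcripts in Hnrnpll, Snrpc and Snrnp70, of NMD transcripts in Hnrnpa1 and Ddx5, and of processed transcripts in Hnrnph1.

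Retained-intron models exist for 42 of the 50 genes. Over these, 25.2 ± 2.24% of counts lay in such transcripts, with 25.7%, 27.1% and 22.7% in replicates 1 to 3. The 5898 other genes with such a model and a mean of at least 100 counts had 22.7 ± 1.36%. The difference within a library was 2.48 ± 0.966 percentage points. It was positive under each weighting of the genes, and its sign changed only when 3 listed genes, chosen after their values were seen, were left out. Without Hnrnpa2b1, Luc7l2 and Rbm25, the listed genes with the most such counts, the share was 18.4 ± 1.22% and the difference, with no gene removed from the other side, was -4.33 points. With all genes kept, the difference was 3.96 points as a median over genes, which no single abundant gene carries, and 6.36 points in shares of TPM.

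A retained-intron share of at least 50% was found in 12 of the 42 genes (28.6%), against 15.7% of the other genes. Hnrnpll, which guides alternative splicing in lymphocytes, had 83.9%, 83.6% and 84.6% in replicates 1 to 3, or 84.0 ± 0.501%. Snrpc had 77.8%, 87.9% and 81.0%, but 31.2% in units of TPM; its single retained-intron model is 6107 bases long and its coding models 758 to 1013 bases. Snrnp70 had 74.1%, 82.1% and 70.1%, so that 2 of the 4 listed U1 and Sm genes were in this class.

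Tra2a, an activator that binds GAA-rich exons, had 64.7%, 61.6% and 60.9%. Luc7l2 had 60.7%, 67.2% and 58.2%, and U2af1, the smaller U2af subunit that reads the acceptor AG, had 63.7%, 68.5% and 53.2%. Rbm25, a U1-associated regulator, had 61.1%, 62.4% and 55.4%, and Hnrnpl had 52.9%, 64.3% and 57.9%. All 3 libraries of these 8 genes were over 50%, and so were those of Hnrnpa2b1 (57.9 ± 5.99%). The remaining 3 were U2af2, the subunit that binds the pyrimidine tract (55.7 ± 8.82%), Ptbp1, a repressor that binds CU-rich RNA (54.5 ± 11.2%), and Luc7l (51.5 ± 1.43%). In these, single libraries fell as low as 41.8% (Ptbp1 in replicate 1) and 46.7% (U2af2 in replicate 3).

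At the other end, Ptbp3 had 0.90%, 0.363% and 0.826%, Ddx5 had 0.715%, 1.19% and 1.05%, and Hnrnpd had 0.925%, 0.933% and 1.28%. Close relatives could lie far apart: Ptbp1 and Ptbp3 both have retained-intron models and had 54.5 ± 11.2% and 0.696 ± 0.291%, and Luc7l3, with 1.44 ± 0.205%, lay below Luc7l and Luc7l2. The share was lowest in replicate 3 in 22 of the 42 genes, against 46.9% of the other genes, and highest in replicate 2 in 22, against 42.7%. These order counts were near the background.

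**Figure D3:**
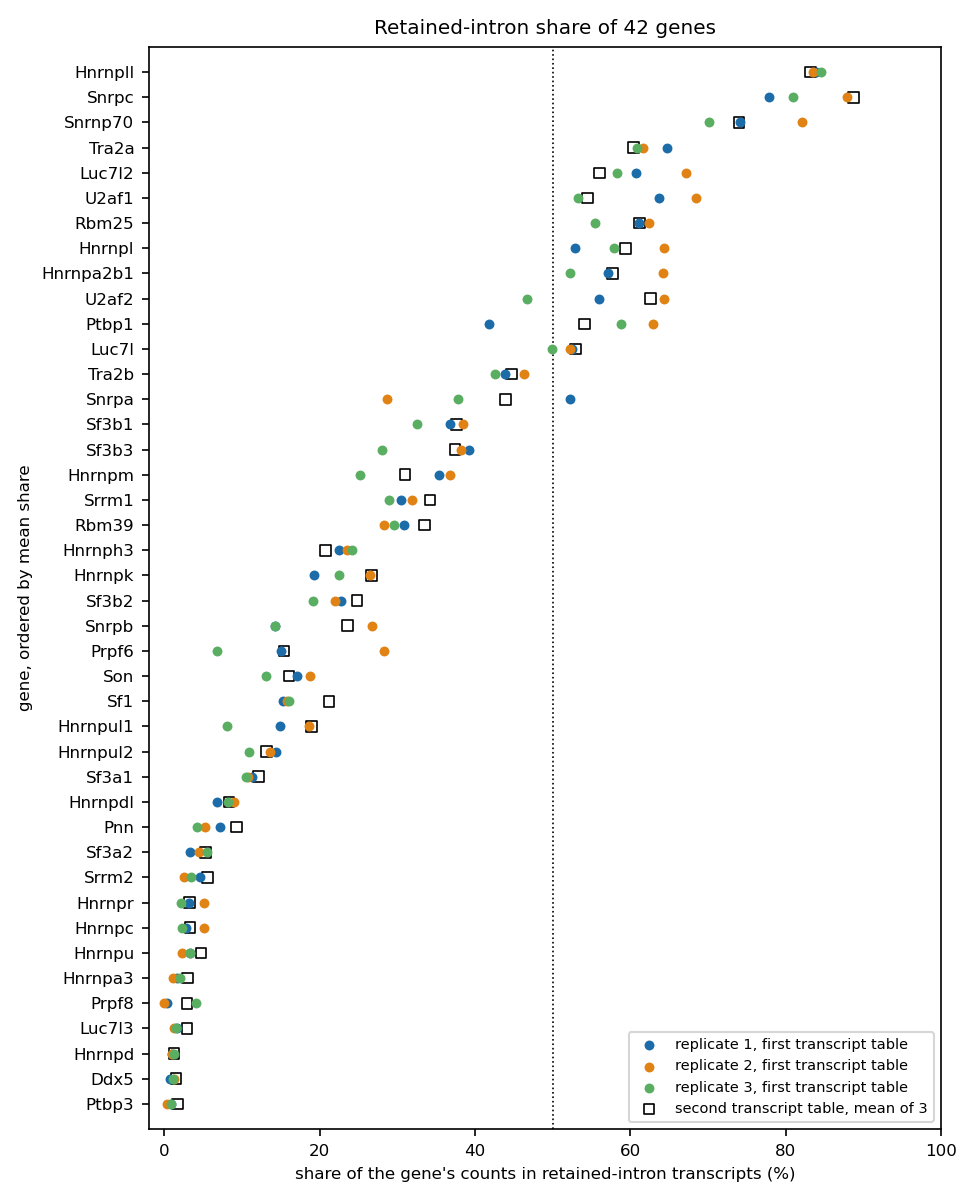
Share of each gene's counts in retained-intron transcripts for the 42 genes that have one, ordered by mean, with 1 coloured point per replicate and an open square for the mean in the second transcript table; the dotted line marks 50%. The top 9 genes have every replicate over 50%, and in the second table Snrpc, at 88.7%, lies above Hnrnpll, at 83.2%.

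The sequences that these counts stand on are given next, because the type of a transcript does not say which intron it keeps or how much of it. Introns are numbered along the coding transcript with the most counts. Of 141 retained-intron transcripts of the 50 genes, 37 hold at least 1 whole intron of that transcript and took 28.4% of the retained-intron counts. Another 98 hold only part of an intron and took 60.8%, and 6 hold no intronic base and took 10.8%. A precursor that is still being spliced and a finished transcript that keeps the intron cannot be told apart in these tables.

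The largest, Luc7l2-206, took 4170, 5293 and 3955 counts in replicates 1 to 3, or 38.4 ± 2.97% of Luc7l2. It runs from the exon through the donor site into the first 2986 bases of the 15446-base intron 2 (chr6:38555064-38570509, plus strand) and ends there. Rbm25-212, with 28.3 ± 3.26% of Rbm25, is a single 4608-base exon that lies entirely inside intron 1. Hnrnpa2b1-213, with 23.1 ± 3.43% of its gene, keeps the 2375-base intron 1 (chr6:51467296-51469670) and the 80-base intron 5 (chr6:51466223-51466302) whole, and the start of intron 6. Hnrnpa2b1-211, with 22.7 ± 5.69%, holds no intron of the leading coding transcript although it carries the same type. Sf3b1-203 keeps the 1813-base intron 4 of 24 (chr1:55014563-55016375, minus strand) and took 28.7 ± 2.40% of Sf3b1. Rbm25-206 keeps the 3300-base intron 9 of 18 (chr12:83660679-83663978, plus strand) and took 25.1 ± 0.324% of Rbm25. The SD of these shares between libraries was at most 5.69 points.

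Transcripts of other types also keep whole introns. Ddx5-208 is typed as an NMD target, keeps the 1265-base intron 11 of 12 (chr11:106782694-106783958, minus strand) and took 18919, 15925 and 22257 counts, or 62.9 ± 2.92% of Ddx5. Hnrnph1-204 and Hnrnph1-205 are typed as processed transcripts, keep the 1494-base intron 4 (chr11:50379965-50381458) and the 939-base intron 5 (chr11:50381598-50382536, plus strand) of 13, and took 42.6 ± 3.11% and 21.5 ± 2.65% of Hnrnph1. Over the 50 genes, transcripts with a whole intron held 6.29 ± 0.490% of counts among retained-intron types, 7.89 ± 0.923% among NMD types (Ddx5-208 alone) and 2.10 ± 0.191% among processed transcripts (6 models of Hnrnph1). Most of the counts on whole introns in Ddx5 and Hnrnph1 therefore stand outside the retained-intron shares given above.

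The ends of the introns kept whole by these transcripts are shown from the GENCODE M21 transcripts (GRCm38), 5′ to 3′, each with 3 exonic bases next to 20 intronic bases and with the first or last 2 intronic bases in capitals.
Hnrnpa2b1 intron 1 donor: gagGTaacgggtttgaaatcaat
Hnrnpa2b1 intron 1 acceptor: aatggtatttccctttgcAGaga
Sf3b1 intron 4 donor: atgGTaattctttcccacttttc
Sf3b1 intron 4 acceptor: gttgctgttcttttctgcAGgag
Rbm25 intron 9 donor: aagGTagtattcttgatttttca
Rbm25 intron 9 acceptor: gtacttttgttggtttctAGaaa
Hnrnph1 intron 4 donor: cagGTatgtagtcctgtttgttg
Hnrnph1 intron 4 acceptor: tatttgtccttgggttgaAGggt
Hnrnph1 intron 5 donor: cagGTggggatggatggttggtt
Hnrnph1 intron 5 acceptor: ccttttggacaatgctttAGgta
Ddx5 intron 11 donor: tagGTtagtacaaactcgaattc
Ddx5 intron 11 acceptor: cacactgcaacaccttacAGatg
The donor of Luc7l2 intron 2, of which Luc7l2-206 keeps the first part, begins with GTGAG.
Luc7l2 intron 2 donor: cgcGTgagttgaaacattggtca

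Hnrnpa2b1 intron 5 is short enough to show whole, with its end bases in capitals.
Hnrnpa2b1 intron 5: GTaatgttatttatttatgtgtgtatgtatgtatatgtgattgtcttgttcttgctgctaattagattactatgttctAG
None of the 7 donors of introns kept whole in these transcripts begins with GTAAG or GTGAG, common donor starts (searched on the transcribed strand only), and 3 of the 6 donors kept with part of an intron in the 12 retained-intron transcripts with most counts do. The 7 were picked for the counts of their transcripts. Over all introns of any coding transcript kept whole by a retained-intron model, 23 of 48 in the listed genes (47.9%) began so. In all other genes it was 50.3% of 8600. The 7 do not stand for the listed genes. They also include introns of Ddx5 and Hnrnph1 read from transcripts of other types, so the sets are not alike. Wholly kept introns of the leading coding transcripts had a median length of 430 bases (39 introns), those kept in part 1939 bases (99 introns) and the rest 581 bases (441 introns).

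NMD-typed transcripts were led by Ddx5. Its NMD share was 64.9%, 60.0% and 64.7% in replicates 1 to 3, and the annotated stop codon of Ddx5-208 (chr11:106783954-106783956) lies at bases 3 to 5 of the kept intron. The window of 9 exonic and 21 intronic bases is shown with that stop in capitals.
Ddx5 exon 11 end and intron 11 start: gagggctaggtTAGtacaaactcgaattca
The leading coding transcript Ddx5-201 took 33.0 ± 2.29%, below Ddx5-208 in all 3 libraries. The posterior SD that the authors deposited for the count of Ddx5-208 in replicate 1 was 107 counts.

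Hnrnpa1, the hnRNP that antagonises SR proteins at exons, had the highest NMD share, 76.4%, 87.7% and 78.2%, mostly in Hnrnpa1-204, a 13-exon model with 159 bases from introns of the leading coding transcript (57.1 ± 2.19% of the gene). Hnrnpd, which also binds AU-rich elements, had 28.2%, 31.8% and 32.5%. Tra2a had 20.4%, 31.7% and 26.6%, all in Tra2a-202, which includes a 306-base exon from inside intron 1. Its annotated stop lies at bases 142 to 144 of that exon (chr6:49252965-49253108, minus strand, to the stop), shown with the stop in capitals.
Tra2a-202 exon to its stop: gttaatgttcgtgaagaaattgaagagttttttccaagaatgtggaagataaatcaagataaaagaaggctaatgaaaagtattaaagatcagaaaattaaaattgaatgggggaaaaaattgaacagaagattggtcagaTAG
Hnrnpu, a scaffold protein that binds nuclear RNA and chromatin, had 7.83%, 13.3% and 28.3%. Its mean of 16.5 ± 10.6% became 10.6% without replicate 3, which was above both other libraries. Son-212 took 10.5 ± 2.10% of Son, a speckle protein. In all, 11 of 31 genes with an NMD model (35.5%) had a share of at least 10%, compared with 26.9% of 2891 other genes.

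Between the 3 libraries the median listed gene varied less than the median measured gene. Some listed genes varied more, up to an SD of log2 CPM of 0.571 in Snrpb. After scaling of counts by TMM factors, the median SD of log2 CPM was 0.206 over the 50 genes, 0.326 over 15826 other measured genes and 0.242 over the 7450 other protein-coding genes at or above the lowest of the 50. A gene was called apart where 1 library was at least 1.5-fold beyond both others. Replicate 1 was above the others in 2 of 50 genes (background 10.7%) and below in 0 (8.86%). Replicate 2 was above in 0 (4.34%) and below in 3 (6.62%), and replicate 3 was above in 0 (5.12%) and below in 0 (6.21%). Each of these counts was at or below the background share. In any direction, 5 of 50 genes were apart on this scale (10%, against 36.3% of other genes), and 15 of 50 in TPM as deposited (30%, against 48.5%). These background shares are over all other measured genes, including those of lower level, and were not matched for level.

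The 5 genes were these. Hnrnpa1 had 189, 95.5 and 117 CPM in replicates 1 to 3, and replicate 1 was 1.79-fold the mean of the others. Hnrnpab, a relative of Hnrnpd, had 125, 60.9 and 82.6 CPM, and replicate 1 was 1.76-fold the others. Both were high in replicate 1 and lowest in replicate 2.

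The remaining genes had the same order of libraries but were called for a low replicate 2. Snrpb, the SmB protein of the Sm ring, had 13.7, 6.66 and 12.7 CPM, 0.505-fold the others in replicate 2. Hnrnpa0, an intronless relative of Hnrnpa1, had 34.9, 17.7 and 33.0 CPM (0.521-fold) and Snrpa, a U1 protein that binds a loop of the U1 RNA, had 35.3, 19.1 and 29.3 CPM (0.593-fold). All 5 genes were lowest in replicate 2, the library made from less RNA, but for Snrpb, Hnrnpa0 and Snrpa the call itself required this. Of all 50 genes on this scale, 18 were lowest in replicate 1, 19 in replicate 2 and 13 in replicate 3. The part of the starting amount was not tested.

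**Figure D4:**
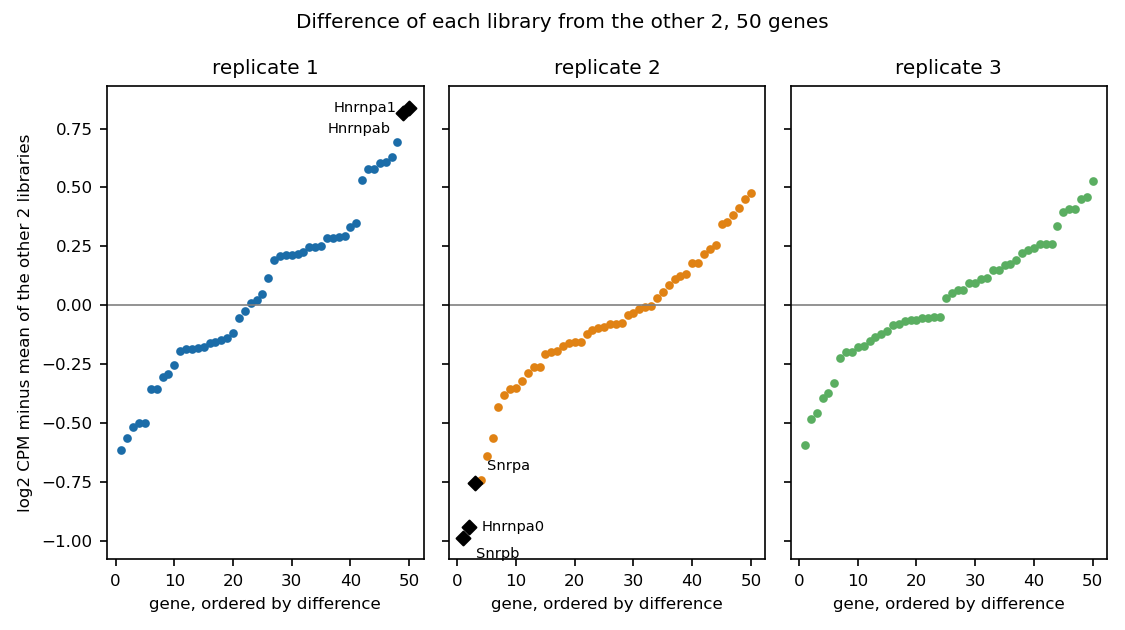
Difference in log2 CPM (TMM-scaled) of each library from the mean of the other 2 for the 50 genes, ordered within each panel; black diamonds mark genes at least 1.5-fold beyond both other libraries. Hnrnpa1 and Hnrnpab are marked above in replicate 1, Snrpb, Hnrnpa0 and Snrpa below in replicate 2, and none in replicate 3.

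Related genes were compared within a library, where scaling cancels, in 14 pairs on log2(TPM + 0.1). In 13 pairs the same gene was higher in all 3 libraries, against 12 pairs in the second transcript table. An exact permutation test that flips signs, two-sided, cannot go below p = 0.25 with 3 libraries, and these 13 had p = 0.25 and 0.269 after Benjamini-Hochberg adjustment over 14 pairs, so none could pass. Hnrnpa2b1 was 7.90-fold above Hnrnpa1, with log2 differences of 2.54, 3.28 and 3.12. Hnrnph1, which binds G-runs, was 5.65-fold above its X-linked relative Hnrnph2 (2.90, 2.44 and 2.15). Hnrnpu was 4.97-fold above Hnrnpul1 (2.52, 2.29 and 2.12).

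U2af2 was 3.38-fold above its heterodimer partner U2af1 (1.47, 2.00 and 1.81), but 1.91-fold in the second transcript table; no other pair moved by over 1.5 times there. Srrm2 was 3.04-fold above Srrm1 (1.22, 1.68 and 1.91), Ddx5 was 2.99-fold above Ddx17 (from 1.40 to 1.85), and Hnrnpl was 2.22-fold above Hnrnpll (from 0.89 to 1.55). Luc7l2 stood above both of its relatives, with log2 differences of -2.34, -2.98 and -2.64 for Luc7l and -1.58, -1.64 and -1.36 for Luc7l3. Hnrnpf lay below Hnrnph1, with -1.43, -1.75 and -1.43. Hnrnpdl lay above Hnrnpd, with 0.95, 0.71 and 0.75, and the 3 values of each of these pairs lay on the same side of 0. In the second table, however, Hnrnpdl was 1.17-fold above Hnrnpd, against 1.74-fold here. There it lay below Hnrnpd in replicate 2, with 42.4 and 44.1 TPM.

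Small differences were seen in the remaining 3 pairs. Hnrnpul2 lay below Hnrnpul1 by -0.20 ± 0.0294, a difference of nearly the same size in each library. Ptbp1 lay above Ptbp3 by 0.23 ± 0.262, no larger than its spread. Tra2a and Tra2b changed order between libraries, with -0.58, 0.13 and 0.19 (p = 1.00 in the exact test). These are differences in total RNA of a gene and not in coding transcripts: Ptbp1 exceeded Ptbp3 in TPM, yet 41.7% of Ptbp1 counts and 99.3% of Ptbp3 counts were coding.

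**Figure D5:**
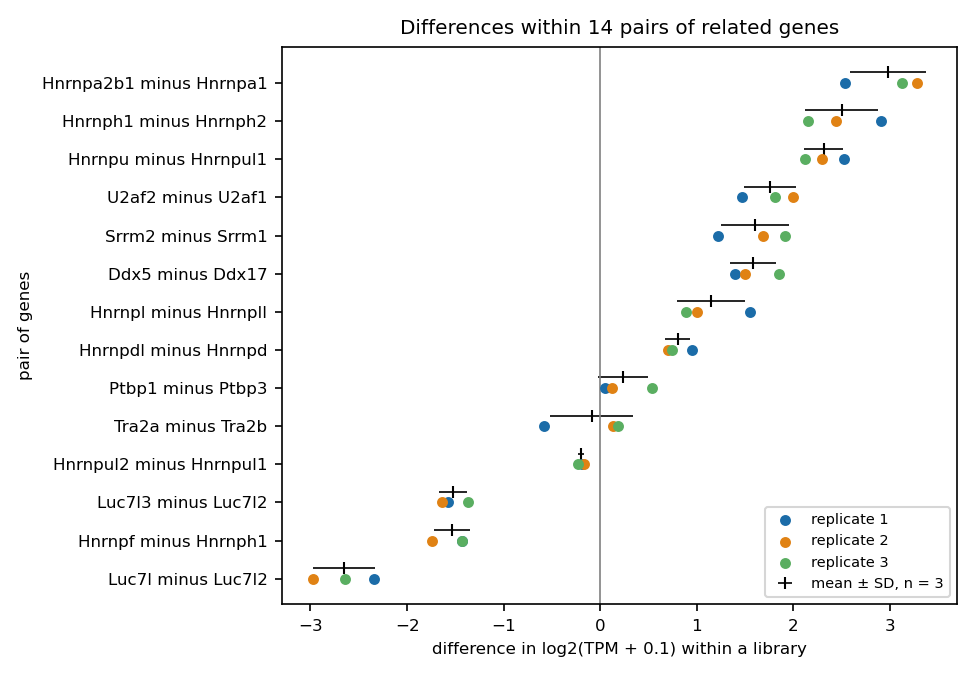
Difference in log2(TPM + 0.1) between the genes of each of 14 pairs, with 1 point per library and, above the points, the mean ± SD (n = 3). All points of a pair lie on the same side of 0 except in Tra2a minus Tra2b, which has replicate 1 at -0.58 and the others above 0.

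The second transcript table, made with another counting model, was on another scale: over measured protein-coding genes its median ratio to the gene table was 0.546 in replicate 1, 0.867 in replicate 2 and 0.186 in replicate 3. Levels were compared as the ratio of means over the 3 libraries, 0.566 in the median gene, which was divided out. The tables were at least 1.5-fold apart in 4 of 50 genes (8%), against 22.6% of 11898 other protein-coding genes. Hnrnpa3, a relative of Hnrnpa1, had 122, 131 and 102 TPM in the gene table and was at 0.561 of that in the second, with 0.475, 0.635 and 0.479 when each library was divided by its own median ratio. Hnrnpa1 had 80.0, 44.6 and 37.6 TPM and was at 0.632, and Hnrnpdl had 90.02, 75.0 and 57.3 TPM and was at 0.668, inside the limit. Rbm39 was at 1.57 and U2af1, with 32.6, 19.8 and 16.0 TPM in the gene table, at 1.55. With each library divided by its own median ratio, each of these 5 lay on the same side of 1 in all 3 libraries. Not every library was 1.5-fold apart: Hnrnpa1 was at 0.707, 0.571 and 0.718, and in replicate 3 Rbm39 was at 1.37 and U2af1 at 1.41.

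Some of these genes share sequence with others. Hnrnpa3 has 23 near copies elsewhere in the annotation, transcripts of at least 95% identity, which held 10.9% as many counts as the gene, and Hnrnpa1 has 8 (4.04%) and U2af1 has 2 (5.73%). How reads were divided among such copies is uncertain, and so are these levels. Exons of Hnrnph3 overlap Rufy2 on the opposite strand, which held 207% as many counts as Hnrnph3, and exons of Sf3a2 overlap Plekhj1 (124%), those of Hnrnpab Phykpl (80.9%) and those of Snrpa BC024978 (76.0%). Whether counting used strand is not given in the sources used here, so reads of these pairs may not be separated. Hnrnpab and Snrpa were among the 5 genes called apart between libraries, but Hnrnph3 and Sf3a2 were not. The other genes called apart, Hnrnpa1, Hnrnpa0 and Snrpb, had no such overlap. The part of these overlaps in the spread was not tested.

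Other genes of splicing gave a wider frame. All 83 genes on a list of other spliceosome and hnRNP genes passed the count minimum, and their median was 9.90 ± 1.59 TPM. Of 11 Srsf genes, which encode the classical SR proteins, 10 passed and had 49.2 ± 13.9 TPM. The 50 genes, at 49.8 ± 9.73 TPM, were above the other list in every library. Retained-intron transcripts took 58.7 ± 3.81% of counts over 8 Srsf genes and 41.9 ± 2.37% over 51 genes of the other list, above the 25.2% of the listed genes in every library. A share of at least 50% was found in 4 of the 8 Srsf genes and in 10 of the 51 others. It was found in 12 of the 42 listed genes (28.6%) and in 15.7% of the 5898 genes outside the listed set. Counted per gene, the other list therefore lay below the listed genes, although its share over all counts was higher. The Srsf share was 68.1 ± 4.58% in Srsf5 and 4.59 ± 2.64% in Srsf1, so it too differed between members.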

How the data were processed

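Each library came with a gene table and 2 transcript tables. The gene table and the first transcript table hold expected counts, TPM and posterior SDs, with the column names that RSEM writes, per the file headers. The second carries kallisto's column names and gives estimated counts with TPM, as deposited by the authors. Credibility bounds of TPM, deposited by the authors and read as a score, were compared with nothing. The notes deposited with the libraries name mm10 and GENCODE M21. Program versions and strand settings were not given in the sources used here. Rows that name no gene (1.24%, 0.372% and 0.0640% of expected counts in replicates 1 to 3) were left out. Gene names, types and introns came from GENCODE M21 (GRCm38).

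Levels are TPM as deposited by the authors. Expected counts were rounded for log2 CPM with TMM factors in edgeR 4.0.16 (R 4.3.3), over 15876 genes with a mean of at least 10 counts; the common biological coefficient of variation was 0.315. Shares by transcript type used genes with a mean of at least 100 counts. A count of 0 allows up to 3 counts, or 0.143 to 0.173 CPM, for counting error only. Near copies were found with minimap2 2.31-r1302. With 1 group there is no test between conditions; paralogue pairs used an exact sign-flip test. The scripts were tested on simulated data.

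Values are given for the 5 highest and 3 lowest genes, the 8 highest and 3 lowest retained-intron shares, genes 1.5-fold beyond both other libraries, the 5 largest table differences, all pairs, and the 6 retained-intron and 4 NMD transcripts with most counts; other names and the donor sites were chosen after their values were seen. The members, lists and pairs were chosen with earlier results of these data known.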

Additional observations from a re-analysis of the deposited data

How the results depend on the processing

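Of 85 recomputed values that answer a comparison, 60 stayed within the spread of the libraries (or within 1.5 times a count), 24 moved beyond it and 1 reversed. No paired analysis was possible because the samples form 1 group. The level of the listed genes above other protein-coding genes was 2.72 on the log2 scale with a pseudocount of 1, 6.34 with no filter on low counts (which adds genes near 0), 2.62 in the second transcript table and 3.01 in log2 CPM, and 2.83 to 2.91 without each replicate. The retained-intron difference between listed and other genes was 6.36 points in shares of TPM (40.4% and 34.0%), 1.24 in the second table (25.6% for other genes), 3.96 as a median over genes (22.8% and 18.8%) and -4.33 without Hnrnpa2b1, Luc7l2 and Rbm25 (18.4%, chosen after seeing the data); it was 1.97 to 2.93 without each replicate. By type, TPM gave 44.1% coding, 35.3% retained-intron and 8.37% processed, and the second table gave 55.6% coding, 15.3% NMD and 5.37% processed. Genes beyond both other libraries numbered 0 at 2-fold and 15 in TPM as deposited, against 5. Genes apart between tables numbered 0 at 2-fold and 3 to 6 without each replicate. In the second table, whose scale is lower (0.566 in the median gene), the listed genes had 26.01 TPM, the other spliceosome list 6.43 and the Srsf genes 21.7; divided by each library's median ratio they had 45.9, 11.1 and 37.9. U2af2 minus U2af1 fell from 1.76 to 0.94 on the log2 scale there. Tra2a minus Tra2b ranged from -0.22 to 0.16 without each replicate, with 0.16 without replicate 1; the other 69 recomputed pair differences kept their sign. The cause of these shifts was not tested. Depth limits the low genes: Snrpb and Snrpc rest on 210.3 and 242 counts. Genes with at least 50% retained-intron numbered 12 in both transcript tables and 14 in shares of TPM. Genes with under 50% coding numbered 16, with 17 in the second table and 24 in shares of TPM, which is at the limit of 1.5 times.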
